A study of Mus musculus with 15 samples.

Results

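The segment of mouse chromosome 17 from Atl2 to Map4k3 was described through 7 of its genes, namely Atl2, Galm, Gemin6, Morn2, Gm10190, Cdkl4 and Map4k3. They were taken by gene symbol from the 26628 genes of the expression table, and all 7 were among the 15213 genes with enough reads to be tested. The genes were chosen by their position side by side and, as far as the choice is known, on their values in Hi and Co samples, as earlier results of these data had shown them, so their line differences are given below as a description with no test, while the difference between brain regions was tested on the assumption that it played no part in the choice. The data are RNA-seq profiles of whole cerebellum (Ce) and whole striatum (St) from male Hsd:ICR mice, an outbred stock, aged 6 weeks by the labels. One line had been bred for high voluntary wheel running (Hi) and the other was a non-selected control line (Co). Mice of both lines had free access to a running wheel until they were dissected, for 7 days by the labels. The groups were 4 CeCo, 4 CeHi, 4 StCo and 3 StHi samples, after the authors removed 1 StHi sample. Each line was a single line, so that effects of selection and of drift between lines cannot be told apart. The paper reports that Hi mice ran more than Co mice before dissection. Effects of the running itself therefore cannot be told apart from those of the line either. The samples were separate tissues of individual mice.

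Values are normalized counts, in which fragments per gene were scaled to the size of each library but not to the length of the gene, and they came from 32909387 to 47485535 fragments per sample. In these units 1 fragment was worth 0.841 to 1.30 normalized counts. The tissue labels were checked on marker genes: all 4 granule cell and all 4 Purkinje cell markers were higher in the Ce (limma, FDR-adjusted P-value under the threshold of 0.05) and all 6 medium spiny neuron markers were higher in the St. The ependymal markers summed to 694 to 997 normalized counts in CeCo, 685 to 1043 in CeHi, 588 to 911 in StCo and 615 to 1247 in StHi. The choroid plexus markers summed to 1303 to 115133 in CeCo, 942 to 111567 in CeHi, 1251 to 1765 in StCo and 1761 to 17849 in StHi. The summed oligodendrocyte markers were 175136 to 256819 in StCo and 267664 to 307421 in StHi, without overlap. In the Ce they were 160529 to 194603 in CeCo and 185140 to 239610 in CeHi, which overlap. The summed medium spiny neuron markers were 8177 to 9473 in CeCo and 10201 to 11356 in CeHi, without overlap, and 143686 to 199663 in StCo and 158225 to 199261 in StHi. The blood markers summed to 1131 to 2661 in CeCo and 1662 to 4396 in CeHi, and to 599 to 1075 in StCo and 1202 to 1407 in StHi, where they did not overlap. None of the tested markers of the 10 cell types examined passed the test between lines in either region. The part of these markers in the results below was not tested.

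The 7 genes have unrelated roles. Atl2 encodes atlastin 2, a membrane GTPase that fuses tubules of the endoplasmic reticulum. Galm encodes galactose mutarotase, which interconverts the anomers of galactose at the entry to the Leloir pathway of galactose breakdown. Gemin6 is a subunit of the SMN complex, which loads Sm proteins onto spliceosomal RNAs. Morn2 encodes a small protein made of MORN repeats, a motif found in proteins of membrane junctions and of motile cilia. Cdkl4 is a member of the cyclin-dependent kinase-like family, and Map4k3 is a STE20-type kinase linked to signaling from amino acids. Gm10190 is a predicted gene with no role assigned here.

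On build GRCm38 (GENCODE M21 annotation) the genes lie between positions 79848390 and 80728485 of chromosome 17, a stretch of 880.1 kb. Atl2 is at 79848390 to 79896123 on the minus strand. Galm follows at 80127471 to 80185101, Gemin6 at 80224441 to 80228497 and Morn2 at 80290203 to 80297476, all on the plus strand. Gm10190 is at 80373218 to 80373541, Cdkl4 at 80523550 to 80577813 and Map4k3 at 80580512 to 80728485, all on the minus strand. Cdkl4 and Map4k3 are neighbors with 2.699 kb between them.

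Some of these genes share sequence with others on the opposite strand, and whether the authors counted fragments by strand is not given in the sources used here. In GENCODE M21 all 324 exon bases of Gm10190 lie inside exon 15 of Arhgef33, at 80372992 to 80373793. For that model 100% of the 50-base windows occur in Arhgef33. RefSeq gives Gm10190 as a noncoding gene spanning 1686 bases, at 80371857 to 80373542, which reaches outside that exon. Which of these models was counted is not known. Morn2 shares 135 exon bases, 20.6% of its exon sequence, with Dhx57. Cdkl4 shares 3.29% and Map4k3 1.09% of exon bases with an antisense transcript and a pseudogene. For Gemin6, 8.77% of 50-base windows occur in other loci, among them a pseudogene of Gemin6. Counts without strand cannot tell such overlapping genes apart, and the values of Gm10190 are uncertain for that reason.

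The stretches before the start sites are shown for Morn2 and Gm10190, which of the 7 had the largest line differences in size in the St, and for Atl2 and Gemin6, a higher-level gene and the gene with a cAMP response element. They were read from RefSeq promoter windows of build GRCm38.p6, which reach from 250 bases before to 50 bases after a start site. The stretches were trimmed to leave out untranslated exon sequence. The Gemin6 window, at 80224201 to 80224500, lies inside the RefSeq span of Gemin6, which begins at 80207504. Sequences are written 5′ to 3′ in the direction of the gene, from the reference genome and not from these mice, and capitals mark the searched motifs.
Atl2 (chr17:79896124-79896373, minus strand): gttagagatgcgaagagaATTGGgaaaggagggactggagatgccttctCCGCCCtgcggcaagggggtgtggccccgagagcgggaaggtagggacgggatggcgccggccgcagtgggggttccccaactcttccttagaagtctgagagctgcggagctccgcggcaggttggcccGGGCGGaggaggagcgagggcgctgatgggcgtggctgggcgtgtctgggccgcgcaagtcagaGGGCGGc
Gemin6 (chr17:80224201-80224440, plus strand): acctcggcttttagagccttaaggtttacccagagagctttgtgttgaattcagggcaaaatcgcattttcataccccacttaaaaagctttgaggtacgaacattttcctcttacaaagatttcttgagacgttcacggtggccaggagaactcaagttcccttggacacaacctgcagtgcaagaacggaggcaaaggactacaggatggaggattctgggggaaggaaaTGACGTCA
Morn2 (chr17:80289962-80290055, plus strand): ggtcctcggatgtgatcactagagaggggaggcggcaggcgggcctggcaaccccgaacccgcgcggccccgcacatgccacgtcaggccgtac
Gm10190 (chr17:80373543-80373656, minus strand): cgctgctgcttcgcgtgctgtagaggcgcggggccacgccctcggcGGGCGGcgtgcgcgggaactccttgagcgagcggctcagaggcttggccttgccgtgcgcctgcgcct

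Windows were given for 6 of the 7 genes, in 7 windows because Cdkl4 had more than one, and both strands were searched. The GC box (GGGCGG) was in 6 of 7 windows and in 35.7% of all 32851 windows. The CCAAT box (CCAAT) was in 3 of 7 windows and in 37.4% of all. The cAMP response element (TGACGTCA) was in 1 of 7, that of Gemin6, and in 1.79% of all windows. The TATA box (TATAAA, 13.6% of all windows) and the E-box (CACGTG, 7.15%) were in none of the 7. The stretch shown for Gm10190 is coding sequence of Arhgef33 on the other strand over its whole length. The Morn2 window holds a CCAAT box and 2 GC boxes in the bases that are not shown. Each match is a description of letters in the reference sequence.

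**Figure D1:**
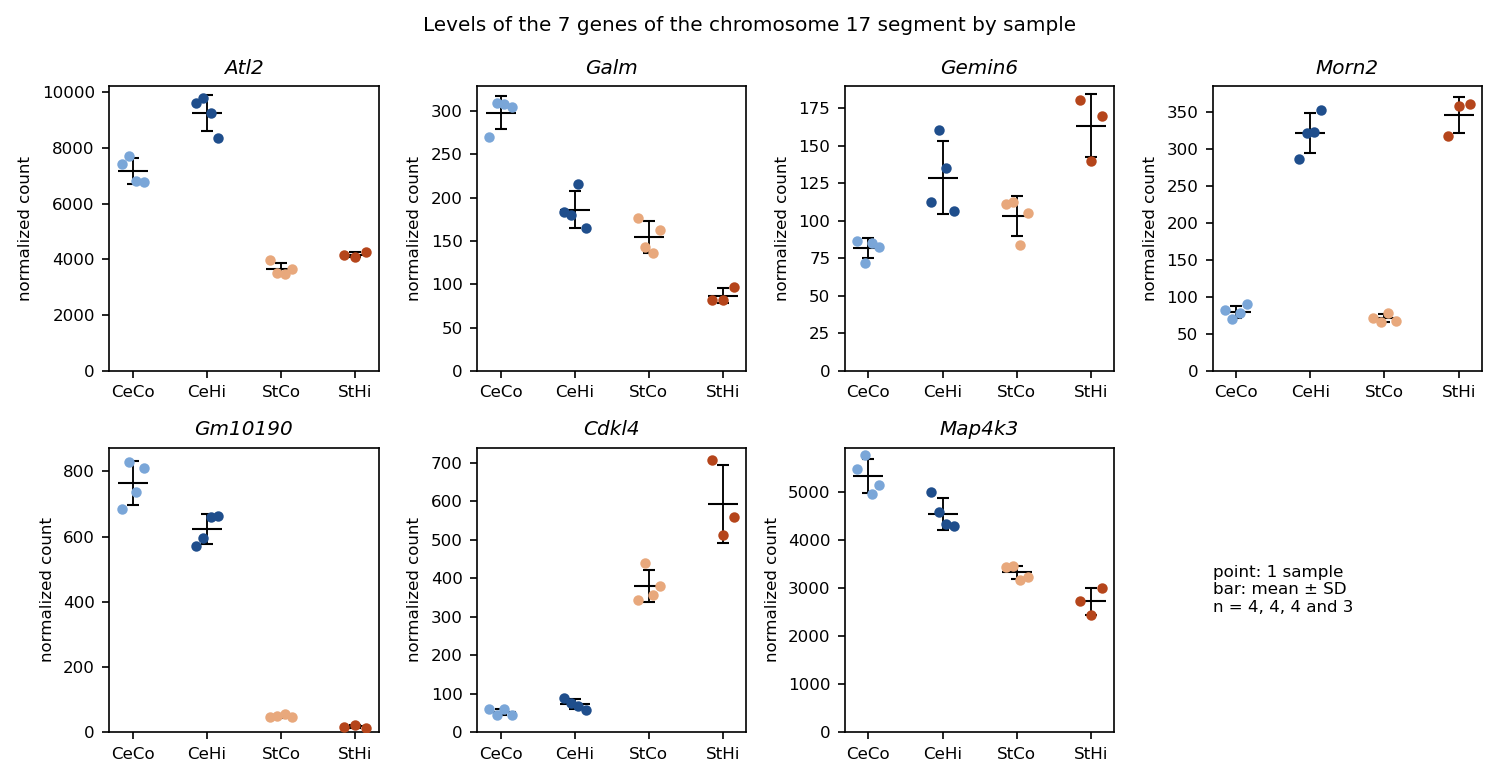
Normalized counts (vertical axes, linear from 0) of the 7 genes in every sample of the 4 groups, with the mean and SD. Morn2 lies between 66.3 and 89.9 in all Co samples and between 287 and 361 in all Hi samples, and Gm10190 and Cdkl4 separate the regions more than the lines.

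Morn2 had the largest difference between lines. Its normalized counts were 82.0, 70.4, 78.5 and 89.9 in CeCo and 287, 322, 323 and 353 in CeHi. In the St they were 71.6, 66.3, 78.8 and 67.6 in StCo and 318, 358 and 361 in StHi. Every Hi sample was above every Co sample in both regions, with a wide gap between them. The log2(line fold change), Hi relative to Co, was 1.98 (SE 0.11) in the Ce and 2.26 (SE 0.12) in the St, which are 3.96-fold and 4.79-fold. The Ce value minus the St value was -0.28 (SE 0.16). In fragments, Morn2 had 58 to 101 in the Co samples of both regions and 245 to 369 in the Hi samples.

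Dhx57, an RNA helicase gene whose first exon overlaps that of Morn2, had a log2(line fold change) of 0.06 (SE 0.05) in the Ce and 0.18 (SE 0.06) in the St. Relative to Dhx57, the Morn2 count was 5.55% ± 0.787 (SD, n = 4) in CeCo and 21.3% ± 2.51 (SD, n = 4) in CeHi. In the St the ratio was 3.44% ± 0.225 (SD, n = 4) in StCo and 14.6% ± 0.875 (SD, n = 3) in StHi. The ratio thus separated the lines as the Morn2 count did, without overlap.

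Gemin6 was higher in the Hi line by a similar amount in both regions. Normalized counts of Gemin6 were 86.7, 72.2, 85.3 and 82.8 in CeCo and 113, 160, 135 and 107 in CeHi. In the St they were 111, 113, 84.0 and 105 in StCo and 180, 140 and 170 in StHi. The lines did not overlap in either region, and the lowest CeHi sample was 107 against a highest CeCo sample of 86.7. The log2(line fold change) was 0.63 (SE 0.15) in the Ce and 0.65 (SE 0.16) in the St. Without 1 library, the Ce value ranged from 0.52 to 0.71 and the St value from 0.56 to 0.76.

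Atl2 had the highest mean count of the 7 genes in each group, and its line difference was small in size. In the Ce, Atl2 had 7428, 7716, 6806 and 6787 normalized counts in CeCo and 9626, 9781, 9266 and 8352 in CeHi. In the St they were 3962, 3503, 3470 and 3659 in StCo and 4164, 4075 and 4272 in StHi. All Hi samples were above all Co samples, although in the St the gap was narrow. The log2(line fold change) was 0.36 (SE 0.06) in the Ce and 0.19 (SE 0.06) in the St, a difference between regions of 0.17 (SE 0.09).

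Cdkl4, a low gene in the Ce, was higher on average in the Hi line. The CeCo samples had 59.6, 45.5, 60.6 and 45.4 normalized counts of Cdkl4 and the CeHi samples 89.1, 77.0, 67.6 and 59.2, so that the lowest CeHi sample lay within the range of CeCo. Its St values were 343, 440, 358 and 379 in StCo and 707, 512 and 560 in StHi, without overlap. Cdkl4 had a log2(line fold change) of 0.46 (SE 0.15) in the Ce and 0.63 (SE 0.16) in the St.

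Galm was lower in the Hi line in both regions. Its normalized counts were 270, 309, 308 and 305 in CeCo and 183, 180, 216 and 165 in CeHi. Its St values were 177, 142, 137 and 163 in StCo and 81.7, 81.6 and 97.4 in StHi. No Hi sample reached the lowest Co sample of its region. Galm had a log2(line fold change) of -0.69 (SE 0.12) in the Ce and -0.83 (SE 0.12) in the St, and the inverse folds were 1.61 and 1.77.

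Map4k3, next to Cdkl4 and on the same strand, was lower in the Hi line by a small amount. Its normalized counts were 5479, 5761, 4968 and 5141 in CeCo and 5007, 4588, 4328 and 4285 in CeHi as measured, where the highest CeHi sample exceeded the lowest CeCo sample. After scaling by trimmed mean of M-values (TMM), which the counts without overlap below use, these 2 groups did not overlap. Its St values were 3445, 3453, 3174 and 3236 in StCo and 2724, 2443 and 3003 in StHi, without overlap. Map4k3 had a log2(line fold change) of -0.24 (SE 0.07) in the Ce and -0.30 (SE 0.07) in the St. The Cdkl4 count relative to the Map4k3 count was 0.995% ± 0.195 (SD, n = 4) in CeCo, 1.60% ± 0.171 (SD, n = 4) in CeHi, 11.4% ± 1.16 (SD, n = 4) in StCo and 21.9% ± 3.73 (SD, n = 3) in StHi.

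Gm10190 was lower in the Hi line, and by more in the St than in the Ce. Its normalized counts were 684, 828, 736 and 811 in CeCo and 573, 596, 660 and 663 in CeHi. In the St they were 46.9, 50.4, 55.7 and 46.6 in StCo and 16.9, 23.3 and 14.2 in StHi, which rest on 38 to 53 and on 12 to 24 fragments per sample. The lines did not overlap in either region. The log2(line fold change) was -0.30 (SE 0.13) in the Ce and -1.44 (SE 0.14) in the St, and the Ce value minus the St value was 1.14 (SE 0.19). With 1 sample left out the St value ranged from -1.63, without StHi replicate 1, to -1.29, without StHi replicate 2.

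Arhgef33, whose exon holds the GENCODE M21 model of Gm10190, had 7444 ± 627 (SD, n = 4) normalized counts in CeCo and 6730 ± 354 (SD, n = 4) in CeHi. In the St it had 40.8 ± 8.44 (SD, n = 4) in StCo and 43.5 ± 12 (SD, n = 3) in StHi. Its log2(line fold change) was -0.15 (SE 0.16) in the Ce and 0.07 (SE 0.17) in the St. The Gm10190 count relative to the Arhgef33 count was 10.3% ± 1.04 (SD, n = 4) in CeCo, 9.29% ± 0.984 (SD, n = 4) in CeHi, 127% ± 30.5 (SD, n = 4) in StCo and 43.9% ± 15 (SD, n = 3) in StHi. In the St the StCo ratios of 91.1% to 165% lay above the StHi ratios of 27.3% to 56.5%.

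**Figure D2:**
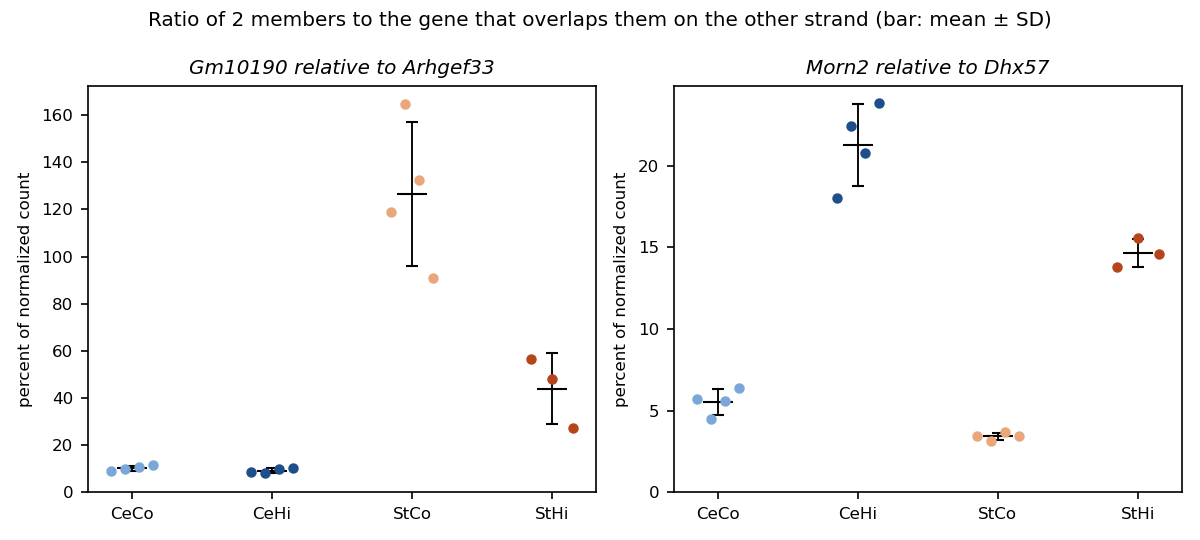
Normalized count of Gm10190 as a percent of that of Arhgef33 (left) and of Morn2 as a percent of that of Dhx57 (right), by sample (points) with the mean and SD in the 4 groups. The Gm10190 ratio is near 10 in CeCo and separates StCo from StHi, and the Morn2 ratio is 5.55 and 3.44 on average in the Co groups against 21.3 and 14.6 in the Hi groups.

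Of the 7, 5 were past the FDR threshold (limma) between CeCo and CeHi, beside 5.94% of all genes tested. These were 3 higher in Hi (2.94% of all genes tested) and 2 lower (2.99%). Between StCo and StHi 5 were past it, beside 2.66% of all genes tested, 2 higher in Hi (1.49%) and 3 lower (1.17%). On TMM-scaled values, the lines did not overlap for 6 of 7 genes in the Ce (13.6% of all genes tested) and for 7 of 7 in the St (13.1%). These are taken to be the contrasts in which the genes were picked, and nothing is read from the counts. The number that passed was 3 in the Ce without CeCo replicate 1 or without CeHi replicate 1, and 3 in the St without StCo replicate 1, StCo replicate 3 or StHi replicate 0.

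**Figure D3:**
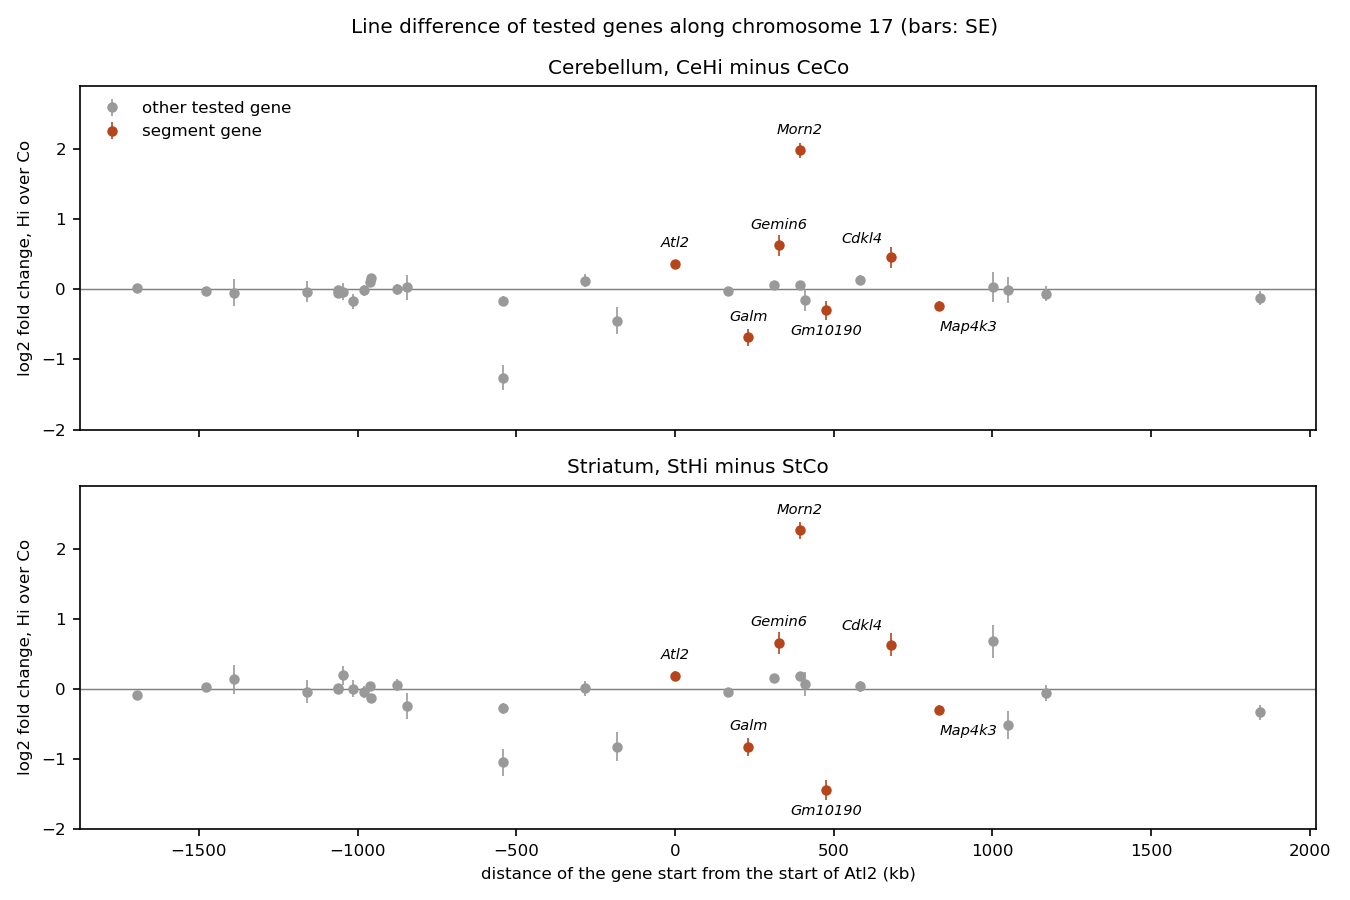
Log2 fold change of Hi over Co with its SE (vertical axes) of the tested genes within 2 Mb of the segment, by the distance in kb of the gene start from that of Atl2 (horizontal axis), in the Ce (top) and the St (bottom). Morn2 is the highest point in both panels, at 1.98 and 2.26, and genes above and below 0 are mixed along the segment.

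The direction was mixed along the chromosome. In order of position, Atl2 was higher in Hi, Galm lower, Gemin6 and Morn2 higher, Gm10190 lower, Cdkl4 higher and Map4k3 lower, in both regions. The expression table holds 14 genes placed in the stretch from Cyp1b1 to Map4k3, of which 13 were tested, and the other 6 tested genes lie among these 7 or just before them. Hnrpll, an RNA-binding protein gene between Atl2 and Galm, had a log2(line fold change) of -0.02 (SE 0.05) in the Ce and -0.05 (SE 0.06) in the St. Srsf7, a splicing factor gene between Galm and Gemin6, had 0.07 (SE 0.05) and 0.16 (SE 0.05). Sos1, a Ras exchange factor gene between Gm10190 and Cdkl4, had 0.13 (SE 0.07) and 0.04 (SE 0.08). Genes with small line differences were thus interspersed with the 7. In the St, Srsf7 and Dhx57, at 0.16 and 0.18, were near Atl2, at 0.19 (SE 0.06). On TMM-scaled values the lines did not overlap for Srsf7 and Dhx57 in the St, nor for Cyp1b1 in both regions. Of all genes tested, 13.6% in the Ce and 13.1% in the St had no overlap.

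Cyp1b1, a cytochrome P450 gene before Atl2, had 305 ± 49.4 (SD, n = 4) normalized counts in CeCo and 223 ± 19.7 (SD, n = 4) in CeHi. In the St it had 113 ± 19.7 (SD, n = 4) in StCo and 66.2 ± 23.2 (SD, n = 3) in StHi. Its log2(line fold change) was -0.45 (SE 0.19) in the Ce and -0.82 (SE 0.21) in the St, and the latter was -0.51 without StHi replicate 2. Among the 6 tested neighbors none passed the threshold in the Ce and 1, Cyp1b1, passed in the St. The Cyp1b1 call was lost in 18 of 30 settings, 12 of which left out a single sample: any one of the Ce samples, StCo replicate 0 or 1, or StHi replicate 0 or 2.

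Within 2 Mb before the stretch 1 of 16 tested genes passed in each region, and within 2 Mb after it 0 of 4 did (limma). The gene that passed was Gm17315, which had 60.6 ± 7.29 (SD, n = 4) normalized counts in CeCo and 25.0 ± 5.13 (SD, n = 4) in CeHi. In the St it had 91.5 ± 3.71 (SD, n = 4) in StCo and 44.5 ± 9.16 (SD, n = 3) in StHi, and its log2(line fold change) was -1.26 (SE 0.18) in the Ce and -1.05 (SE 0.19) in the St. The other nearest tested genes before the stretch, Cdc42ep3 and Fam82a1, had -0.16 (SE 0.07) and 0.12 (SE 0.10) in the Ce and -0.28 (SE 0.08) and 0.01 (SE 0.11) in the St. After it, C230072F16Rik, Tmem178 and Thumpd2 had 0.04 (SE 0.22), 0.00 (SE 0.19) and -0.06 (SE 0.11) in the Ce and 0.68 (SE 0.23), -0.52 (SE 0.20) and -0.06 (SE 0.12) in the St. Without StHi replicate 1 the Tmem178 value in the St was -0.18. On TMM-scaled values the lines did not overlap for Gm17315 and Cdc42ep3 in both regions, nor for Fam82a1 in the Ce. They overlapped for Fam82a1 in the St and for C230072F16Rik, Tmem178 and Thumpd2 in both regions. Of all genes tested, 13.6% had no overlap in the Ce and 13.1% in the St. Over chromosome 17, 51 of 704 tested genes (7.24%) passed in the Ce and 27 of 704 (3.84%) in the St.

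The regions were compared next, on the mean of both lines, with limma over all 15 samples. Of the 7 genes 6 differed between regions, in a comparison in which 80.2% of all genes tested passed. There were 4 higher in the Ce (40.6% of all genes tested) and 2 lower (39.6%). The share of the segment is therefore near the background. Gm10190 had the largest difference, a log2 fold change of Ce over St of 4.48 (SE 0.10, FDR-adjusted P-value 6.8e-17 by limma). Arhgef33, whose exon holds the GENCODE M21 model of Gm10190, had 7.38 (SE 0.12). The values of Gm10190 are uncertain because of this overlap, and the part of Arhgef33 fragments in its region difference was not tested. Cdkl4 was lower in the Ce by a log2 value of -2.92 (SE 0.11, FDR-adjusted P-value 1.1e-13), which is 7.58-fold. Because the tissue is bulk, fewer cells of a type and less RNA per cell cannot be told apart.

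Atl2 and Galm were each about as much higher in the Ce, with log2 fold changes of 1.06 (SE 0.04, FDR-adjusted P-value 4e-13) and 1.01 (SE 0.09, FDR-adjusted P-value 6e-09). Map4k3 was higher in the Ce by 0.71 (SE 0.05, FDR-adjusted P-value 4.6e-10). Gemin6 was lower in the Ce, at -0.34 (SE 0.11, FDR-adjusted P-value 0.0082), but the samples of the 2 regions overlapped in each line and the value within the Co line was -0.33 (SE 0.15, FDR-adjusted P-value 0.053) and within the Hi line -0.36 (SE 0.16, FDR-adjusted P-value 0.057). The call was lost with quantile normalization, at -0.11 (FDR-adjusted P-value 0.38).

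Morn2, the gene with the largest line difference, had a region difference of 0.03 (SE 0.08, FDR-adjusted P-value 0.77), and its Ce and St samples overlapped in each line. With quantile normalization the value was 0.21 (FDR-adjusted P-value 0.017). Within lines, 5 of 7 genes passed in the Co line, where 74.7% of all genes tested did, and 5 of 7 in the Hi line, where 70.5% did.

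**Figure D4:**
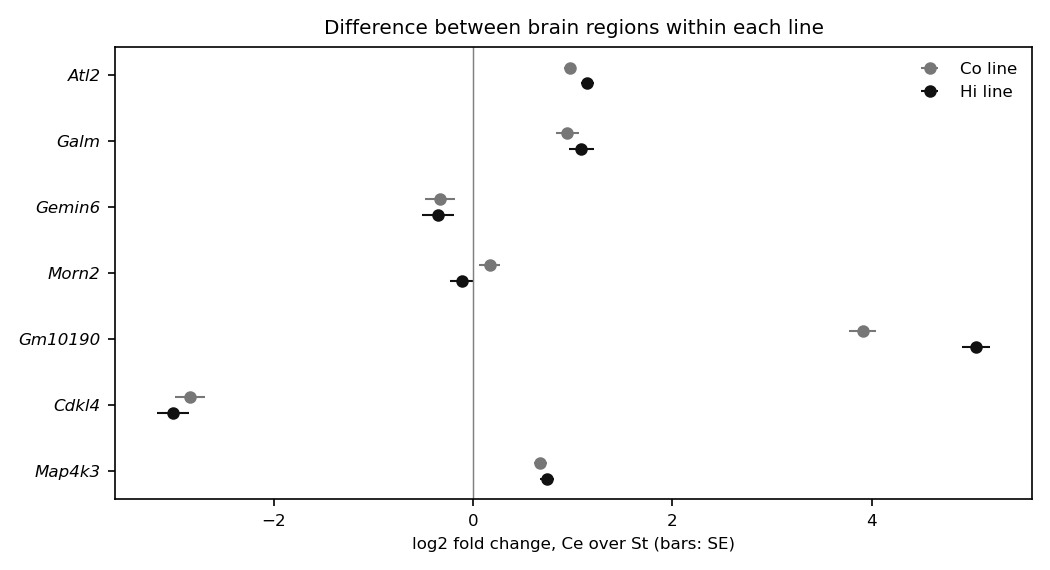
Log2 fold change of Ce over St with its SE (horizontal axis) of the 7 genes in the Co line and in the Hi line. Gm10190 is at 3.91 and 5.05 and Cdkl4 at -2.84 and -3.01, while Morn2 lies near 0 in both lines.

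Levels of different genes were compared per kb of exon, leaving out Gm10190. Exon lengths were those of GENCODE M21. The annotation used for counting is not given, and RefSeq has longer spans for Morn2 and Gemin6, so the order between genes depends on these lengths. In CeCo the order was Atl2 with 730 ± 47.0 normalized counts per kb (SD, n = 4), Map4k3 with 539 ± 35.7, Morn2 with 122 ± 12.3, Galm with 120 ± 7.53, Gemin6 with 57.3 ± 4.59 and Cdkl4 with 15.8 ± 2.54, in which Morn2 and Galm did not differ beyond their spread. In CeHi Atl2 had 940 ± 65.0 per kb, Morn2 490 ± 41.3, Map4k3 459 ± 33.4, Gemin6 90.2 ± 17.1, Galm 75.2 ± 8.65 and Cdkl4 21.9 ± 3.85. There Morn2 and Map4k3, and likewise Gemin6 and Galm, lay within their spread.

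In StCo Atl2 had 371 ± 22.8 normalized counts per kb and Map4k3 336 ± 14.4, followed by Cdkl4 with 114 ± 12.8, Morn2 with 108 ± 8.54, Gemin6 with 72.3 ± 9.27 and Galm with 62.4 ± 7.45. Cdkl4 and Morn2, and Gemin6 and Galm, lay within their spread. In StHi Morn2 was the first in the order with 527 ± 36.9 per kb (SD, n = 3), before Atl2 with 424 ± 10.05, Map4k3 with 275 ± 28.2, Cdkl4 with 178 ± 30.4, Gemin6 with 114 ± 14.7 and Galm with 35.1 ± 3.67. With these exon lengths Morn2 thus moved from the fourth place in StCo to the first in StHi.

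**Figure D5:**
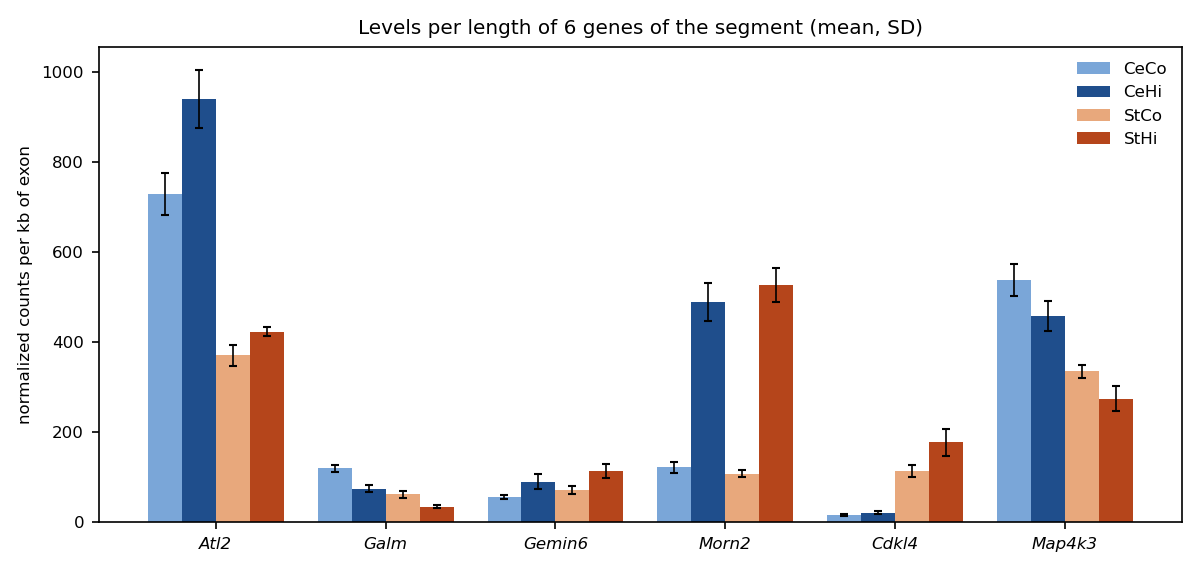
Mean level in normalized counts per kb of exon (bars from 0, error bars SD) of 6 genes in CeCo, CeHi, StCo and StHi. Morn2 goes from 122 and 108 in the Co groups to 490 and 527 in the Hi groups, and Cdkl4 is above 100 in the St groups only.

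Genes of the same families and pathways were examined in 6 lists with 56 genes, of which 52 were tested. The lists were chosen with earlier results of these data known, so the P-values of their genes between lines are a description. Between CeCo and CeHi 2 of the 52 passed (limma, adjusted over all genes tested), both higher in Hi, which is 3.85% beside 5.94% of all genes. Between StCo and StHi 3 passed, 2 higher and 1 lower in Hi, which is 5.77% beside 2.66%. In the MORN repeat list, Rsph1, a radial spoke protein of motile cilia, was higher in Hi in both regions, and 1 of 7 tested genes passed in each. Its normalized counts were 148, 127, 199 and 115 in CeCo, 472, 353, 513 and 224 in CeHi, 106, 136, 186 and 160 in StCo and 291, 738 and 614 in StHi, without overlap. The log2(line fold change) of Rsph1 was 1.36 (SE 0.31, FDR-adjusted P-value 0.018 by limma) in the Ce and 1.81 (SE 0.34, FDR-adjusted P-value 0.0083) in the St. The Ce call was lost when CeCo replicate 1, CeCo replicate 3, CeHi replicate 0 or CeHi replicate 2 was left out, with adjusted P-values of 0.054 to 0.059. None of the 4 tested ependymal markers passed between lines. Foxj1, the regulator of motile cilia among them, had 0.19 (SE 0.19) in the Ce and 0.24 (SE 0.20) in the St. Ccdc153, Tmem212 and Rsph4a had -0.14 (SE 0.35), 0.05 (SE 0.31) and 0.09 (SE 0.25) in the Ce. In the St these 3 had 0.19 (SE 0.38), 0.52 (SE 0.34) and 0.04 (SE 0.27). The part of ciliated cells in the Rsph1 difference was not tested.

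In the SMN complex list 1 of 8 genes passed in the Ce and 0 of 8 in the St. Ddx20, the helicase subunit Gemin3, had 921, 849, 751 and 748 normalized counts in CeCo and 979, 1099, 1028 and 1034 in CeHi, a log2(line fold change) of 0.34 (SE 0.07, FDR-adjusted P-value 0.0058 by limma). In the galactose list 0 of 8 passed in the Ce and 1 of 8 in the St. There Pgm1, a gene of the phosphoglucomutase family, had 295, 245, 264 and 233 in StCo and 384, 324 and 360 in StHi. Its log2(line fold change) was 0.45 (SE 0.10, FDR-adjusted P-value 0.023 by limma). This was the opposite direction to Galm. Pgm2 and Pgm3, named for the same family, did not pass in the St, at 0.17 (SE 0.07) and 0.06 (SE 0.07). The Pgm1 call was lost when StCo replicate 1, StCo replicate 3, StHi replicate 0 or StHi replicate 2 was left out, when each region was fitted alone, and with the replicate number as a block within line, with adjusted P-values between 0.065 and 0.091 over the settings that lost it.

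In the CDKL list 0 of 4 genes passed in the Ce and 1 of 4 in the St. Cdkl2 had 2501, 2541, 2451 and 2551 normalized counts in StCo and 2055, 2117 and 2022 in StHi, a log2(line fold change) of -0.29 (SE 0.06, FDR-adjusted P-value 0.017 by limma), opposite in direction to Cdkl4. The Cdkl2 call was lost without StCo replicate 1, StHi replicate 0 or StHi replicate 2, and with the replicate number as a block within line, with adjusted P-values between 0.05 and 0.098 over the settings that lost it. None of the 18 genes of the endoplasmic reticulum shaping list, which holds Atl1 and Atl3, and none of the 7 STE20 kinases passed in either region. Between regions 17 of 18 genes of the endoplasmic reticulum list, 6 of 8 of the galactose list, 7 of 8 of the SMN list, 6 of 7 of the MORN list, 4 of 4 CDKL kinases and 6 of 7 STE20 kinases passed, beside 80.2% of all genes.

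For each gene, the gene outside the stretch whose log2 levels were most like it was sought over the 15 samples, after the mean of each region was subtracted. The Pearson r was 0.995 for Morn2 with 1500004A13Rik on chromosome 3, 0.971 for Gm10190 with Cd300lf on chromosome 11, and 0.960 for Atl2 with Kidins220 on chromosome 12. It was 0.948 for Galm with Zfp605 on chromosome 5, 0.933 for Gemin6 with Traf6 on chromosome 2, 0.933 for Map4k3 with Fam49b on chromosome 15 and 0.886 for Cdkl4 with Aldh1a7 on chromosome 19. These samples share the division into lines, and each value is the highest of all genes tested, so it is a description only.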

How the data were processed

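RNA-seq of Ce and St of individual mice was used, in the groups given by the labels (4 CeCo, 4 CeHi, 4 StCo and 3 StHi). The authors aligned paired-end reads to GRCm38 with TopHat2 and normalized with Cuffnorm 2.2.1. The deposited values are a gene signal, fragment counts that Cuffnorm scaled for library size alone, without gene length: 99.3% to 99.5% of low values per sample (up to 200 fragments) were whole multiples of a step within a tolerance of 0.02. The annotation and strand setting are not given in the sources used here.

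Genes with a CPM of at least 1 in 3 samples (15213) received trimmed mean of M-values (TMM) factors (0.933 to 1.05; edgeR 4.0.16), transformed as log2(value + 1), and fitted with limma 3.58.1 in R 4.3.3 (4 group means, trended and robust empirical Bayes, Benjamini-Hochberg adjustment over all genes tested). A fold change is on this log2 scale and understates the change of low genes. The paper's edgeR test and DESeq2 1.42.0 were run as alternatives on recovered fragments, because the deposited values are scaled. The model was tested on simulated data.

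The members and lists were chosen with earlier results of these data known. Named genes are the 7 members, tested genes of the stretch, the 3 nearest on each side, list genes past FDR 0.05 (at most 3 per list) and the most similar gene to each member. Positions are from GENCODE M21 (24510 of 26628 symbols placed). Alternatives covered pseudocount, filter, scaling, moderation, weights, replicate block and each sample left out. P-values measure the spread between mice of 1 line each.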

Additional observations from a re-analysis of the deposited data

Results flagged for a closer look

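Galm in CeCo was singled out because 1 sample stood apart from the others of its group: replicate 0 had 270 normalized counts against 305 to 309 in the other samples, a gap of 0.878 of the range of the group, above the critical value of Dixon's test for 4 samples. Of 21 groups examined (7 genes in the 3 groups with 4 samples) 1 was singled out, and chance alone does so for about 1 in 20.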

How the results depend on the processing

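All comparisons rest on 3 or 4 mice per group of a single line each, and Gm10190 in StHi on 12 to 24 fragments per sample. The 7 genes kept the sign of both line differences under every alternative run. When each sample was left out in turn, the members that passed numbered 3 to 5 in the Ce and 3 to 6 in the St, and the list genes 1 to 3 in each region. The list count in the Ce was 5 with DESeq2 on recovered fragments. The Morn2 difference between regions ranged from -0.00355 to 0.0602 when 1 sample was left out and was reversed (FDR-adjusted P-value 0.972 by limma) without StHi replicate 0 only, and the Gm10190 difference in the St was -1.86 with quantile normalization. The cause was not tested.

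Over all genes, 903 passed between lines in the Ce and 405 in the St. DESeq2 called 1389 and 709, edgeR 952 and 420, and limma with sample quality weights 740 in the St. Leaving out 1 sample gave 613 to 953 in the Ce and 269 to 468 in the St. The St count was 269 without StCo replicate 1 or StHi replicate 2 and 270 without StHi replicate 1.

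The labels number samples 0 to 3 in each group, but nothing says that a number marks a mouse. Residuals of same-numbered Ce and St samples correlated at 0.171 to 0.278 in the Co line, against -0.163 to 0.015 for different numbers, so that each Co sample correlated best with its own number. In the Hi line they correlated at -0.075 to 0.051, against -0.080 to 0.073 for different numbers. Pairing by number was thus seen in the Co residuals and not in the Hi residuals. After 1 StHi sample was removed, the remaining labels may not match those of CeHi. The highest correlation of any Hi pair, of the same or of different numbers, was 0.073. The cause of this difference between the lines was not tested. The main model has no pairing. With the replicate number as a block shared by both lines, 4 members passed in the Ce, 4 in the St and 6 between regions. The list genes then numbered 2 and 3, and all genes 948 and 374. With a block within line, the members were 5, 4 and 6 and the list genes 3 and 1, and the Pgm1 and Cdkl2 calls in the St were lost.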
